A study of Mus musculus with 9 samples.

Results

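A set of 9 macrophage genes, called members below, was followed through the mammary tumours of an Erbb2-driven mouse model: C1qa, C1qb, C1qc, Csf1r, Tyrobp, Cd68, Lyz2, Mrc1 and Cd163. They are genes that mark macrophages and the complement protein C1q, were matched by gene symbol, and make up 9 of the 18484 genes measured. Each of the 9 symbols matched 1 gene, and all 9 were counted well enough to be tested.

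RNA had been sequenced from 9 snap frozen whole tumours of BlgCre-NeuKI mice, with 1 library per tumour after removal of ribosomal RNA. In these mice an activated rat Neu cDNA sits behind a floxed stop cassette in the endogenous Erbb2 locus, and Cre under the beta-lactoglobulin promoter, which acts mainly in luminal ER-negative mammary cells, opens it. Both alleles were heterozygous in every animal, on a mixed FVB and C57Bl6 background, so that no tumour is a control without the transgene. The question put to the tumours was how far amplification of the Erbb2/Neu locus, reproductive history and tumour type go with differences in expression.

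The 5 high-amplified tumours were all adenocarcinomas of no special type, AC(NST). MS 1213.1, MS 1163.1 and MS 1163.2 came from virgin mice, and MS 1218.2 and MS 1155.3 from parous mice. The 3 not/low-amplified tumours came from parous mice: MS 1210.1 and MS 1349.1 were adenosquamous carcinomas (ASQC), and MS 1166.1 was an AC(NST). The sarcoma MS 1156.1, also from a parous mouse and without high amplification, is given as single values only. Every virgin tumour was high-amplified and every ASQC was not/low-amplified, so these 3 properties overlap. The copy number assays run on genomic DNA were not concordant for MS 1218.2 and MS 1213.1, which are kept here in the group their labels give. MS 1163.1 and MS 1163.2 share a mouse number, and the labels name neither ages nor a batch.

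Tissue macrophages develop from embryonic precursors or from blood monocytes and depend on signals through the CSF1 receptor. In the mammary gland they surround the growing ducts, clear dying cells when the gland regresses after lactation, and are often abundant in carcinomas. They are also the main cells that make C1q, the recognition protein that starts the classical complement pathway and coats dying cells. Because whole tumours were sequenced, a higher level can come from more macrophages or from more RNA per macrophage, and these cannot be told apart here.

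Promoter sequences were read from RefSeq (build GRCm38.p6) for 6 of the 9 members, as the 250 bases before the annotated start. C1qa, Csf1r and Tyrobp had no entry. They are printed for 4 members, 5′ to 3′ on the strand of the gene. Of these, 2 belong to genes that moved together in the tumours (C1qb, Cd68) and 2 to genes that followed them less closely (Mrc1, Cd163). Capitals mark matches on either strand to GAGGAA, the core bound by the macrophage factor PU.1 (TTCCTC on the other strand), or to TGANTCA, the AP-1 motif.
C1qb, chr4:136886201-136886450, minus strand: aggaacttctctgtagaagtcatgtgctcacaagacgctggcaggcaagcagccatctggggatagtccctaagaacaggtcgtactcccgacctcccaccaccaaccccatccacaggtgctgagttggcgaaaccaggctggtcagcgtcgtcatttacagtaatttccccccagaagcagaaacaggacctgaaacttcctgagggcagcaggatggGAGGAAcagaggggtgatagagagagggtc
Cd68, chr11:69666171-69666420, minus strand: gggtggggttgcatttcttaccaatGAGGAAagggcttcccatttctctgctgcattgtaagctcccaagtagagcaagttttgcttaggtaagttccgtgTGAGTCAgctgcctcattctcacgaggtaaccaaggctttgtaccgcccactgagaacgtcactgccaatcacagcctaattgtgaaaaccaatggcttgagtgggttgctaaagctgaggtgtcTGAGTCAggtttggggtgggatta
Mrc1, chr2:14229164-14229413, plus strand: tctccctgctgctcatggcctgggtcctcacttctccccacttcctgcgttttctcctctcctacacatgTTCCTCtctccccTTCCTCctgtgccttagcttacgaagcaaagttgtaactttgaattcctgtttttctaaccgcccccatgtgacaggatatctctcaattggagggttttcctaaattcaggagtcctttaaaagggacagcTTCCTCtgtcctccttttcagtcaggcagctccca
Cd163, chr6:124304401-124304650, plus strand: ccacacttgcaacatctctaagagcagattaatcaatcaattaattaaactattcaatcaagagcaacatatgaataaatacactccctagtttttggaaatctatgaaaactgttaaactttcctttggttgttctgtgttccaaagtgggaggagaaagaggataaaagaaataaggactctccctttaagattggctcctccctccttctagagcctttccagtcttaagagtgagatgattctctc

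Of 32851 promoters of this length, 23.25% hold the PU.1 core on either strand and 6.749% hold the AP-1 motif. The PU.1 core occurred once in C1qb, 30 bases before the start, and once in Cd68, 225 bases before it. Mrc1 held 3 copies, at 180, 167 and 35 bases before the start, all on the other strand, and Cd163 held none. Of the windows not printed, C1qc held 1 copy, 193 bases before the start. Lyz2, which moved with C1qb and Cd68, held none. The AP-1 motif occurred only in Cd68, at 149 and 24 bases before the start. The E-box CACGTG, present in 6.021% of promoters, was in none of the 6 windows. A match is a run of letters and not a measured binding site.

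Between 12501225 and 23912429 reads per tumour fell on genes (median 15265197). Values for the 8 epithelial tumours are the deposited normalized counts, which are reads divided by 1 size factor per tumour. Erbb2 was at 5284 to 105019 normalized counts in the high-amplified tumours and at 1532 to 2783 in the not/low-amplified ones, with 15261 in MS 1218.2. The summed level of 8 epithelial markers was 32934 to 124130 in the epithelial tumours and 460 in the sarcoma, as their labels have it. Summed levels here and below are on 1 scale over all 9 tumours. Divided by exon length, the members ordered by their median over the 8 tumours were Lyz2 (2964 normalized counts per kilobase of exon), C1qa (1380), C1qb (995), C1qc (493), Tyrobp (484), Csf1r (361), Cd68 (244), Mrc1 (240) and Cd163 (46.8). The ranges over tumours of neighbours in this order overlapped throughout.

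C1qa, C1qb and C1qc encode the A, B and C chains of C1q and lie side by side on the minus strand of chromosome 4. On GRCm38, C1qa (ENSMUSG00000036887) spans 136895917 to 136898803, C1qc (ENSMUSG00000036896) 136889804 to 136893065 and C1qb (ENSMUSG00000036905) 136880129 to 136886187. In the high-amplified tumours the normalized count of C1qa was 1877 in MS 1213.1, 1061 in MS 1163.1, 1138 in MS 1163.2, 11971 in MS 1218.2 and 1159 in MS 1155.3. Among the not/low-amplified tumours MS 1210.1 had 3582, MS 1349.1 had 1824 and MS 1166.1 had 692. MS 1218.2 stood far above the rest, the ASQC MS 1210.1 came next, and MS 1166.1 was lowest. C1qb followed the same course from 590 in MS 1166.1 through 2603 in MS 1210.1 to 7839 in MS 1218.2, with 804 to 1742 in the others. C1qc ran from 473 in MS 1166.1 through 2436 in MS 1210.1 to 8771 in MS 1218.2, with 672 to 1589 in the others. For all 3 chains the high- and not/low-amplified tumours overlapped.

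Csf1r (ENSMUSG00000024621, chromosome 18, 61100598 to 61132149, plus strand) encodes the receptor for CSF1 and IL34. Its normalized count was 3035 in MS 1213.1, 1358 in MS 1163.1, 1918 in MS 1163.2, 8516 in MS 1218.2 and 1942 in MS 1155.3. Among the not/low-amplified tumours MS 1210.1 had 3097, MS 1349.1 had 2386 and MS 1166.1 had 573. MS 1218.2 was again highest and MS 1166.1 lowest, and MS 1213.1 and MS 1210.1 were nearly level. Csf1r overlaps Hmgxb3 on the opposite strand, and the strand setting of the counting is not given in the sources used here, so reads of this neighbour may be among its counts. Tyrobp (ENSMUSG00000030579, chromosome 7, 30413760 to 30417585, plus strand) encodes DAP12, the adaptor through which TREM2 and related receptors signal. It ran from 118 in MS 1166.1 through 663 in MS 1210.1 to 2389 in MS 1218.2, and lay between 267 and 502 in the other tumours.

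Cd68 and Lyz2 encode lysosomal proteins of phagocytes. Cd68 (ENSMUSG00000018774, chromosome 11, 69664213 to 69666153, minus strand) was at 304 in MS 1213.1, 324 in MS 1163.1, 216 in MS 1163.2, 3860 in MS 1218.2 and 280 in MS 1155.3. It was at 663 in MS 1210.1, 623 in MS 1349.1 and 316 in MS 1166.1. Apart from MS 1218.2, the ASQC tumours were highest and the AC(NST) tumours of both amplification groups lay close together. Lyz2 (ENSMUSG00000069516, chromosome 10, 117277331 to 117282321, minus strand) encodes lysozyme M and was the most abundant member, from 1860 in MS 1166.1 through 8544 in MS 1210.1 to 37014 in MS 1218.2. Its paralogue Lyz1 is nearly identical, and only uniquely mapped reads were kept, so reads that fit both genes may be missing from either. Lyz1 held 8.33 to 136 normalized counts.

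Mrc1 and Cd163 encode scavenger receptors of tissue macrophages, the mannose receptor CD206 and the receptor for haemoglobin bound to haptoglobin. Mrc1 (ENSMUSG00000026712, chromosome 2, 14229392 to 14332057, plus strand) was at 2725 in MS 1213.1, 1576 in MS 1163.1, 3420 in MS 1163.2, 6086 in MS 1218.2 and 1235 in MS 1155.3. It was at 672 in MS 1210.1, 1615 in MS 1349.1 and 584 in MS 1166.1. High-amplified tumours were mostly higher, but MS 1349.1 lay above MS 1155.3 and MS 1163.1. Cd163 (ENSMUSG00000008845, chromosome 6, 124304656 to 124330527, plus strand) was at 371 in MS 1213.1, 378 in MS 1163.1, 731 in MS 1163.2, 1233 in MS 1218.2 and 158 in MS 1155.3. It was at 22.5 in MS 1210.1, which is 32 reads, at 75.3 in MS 1349.1 and at 145 in MS 1166.1. Its groups did not overlap, although the nearest tumours, MS 1155.3 and MS 1166.1, were almost level. The ASQC MS 1210.1, second highest for 7 of the 9 members, was lowest for Cd163.

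**Figure D1:**
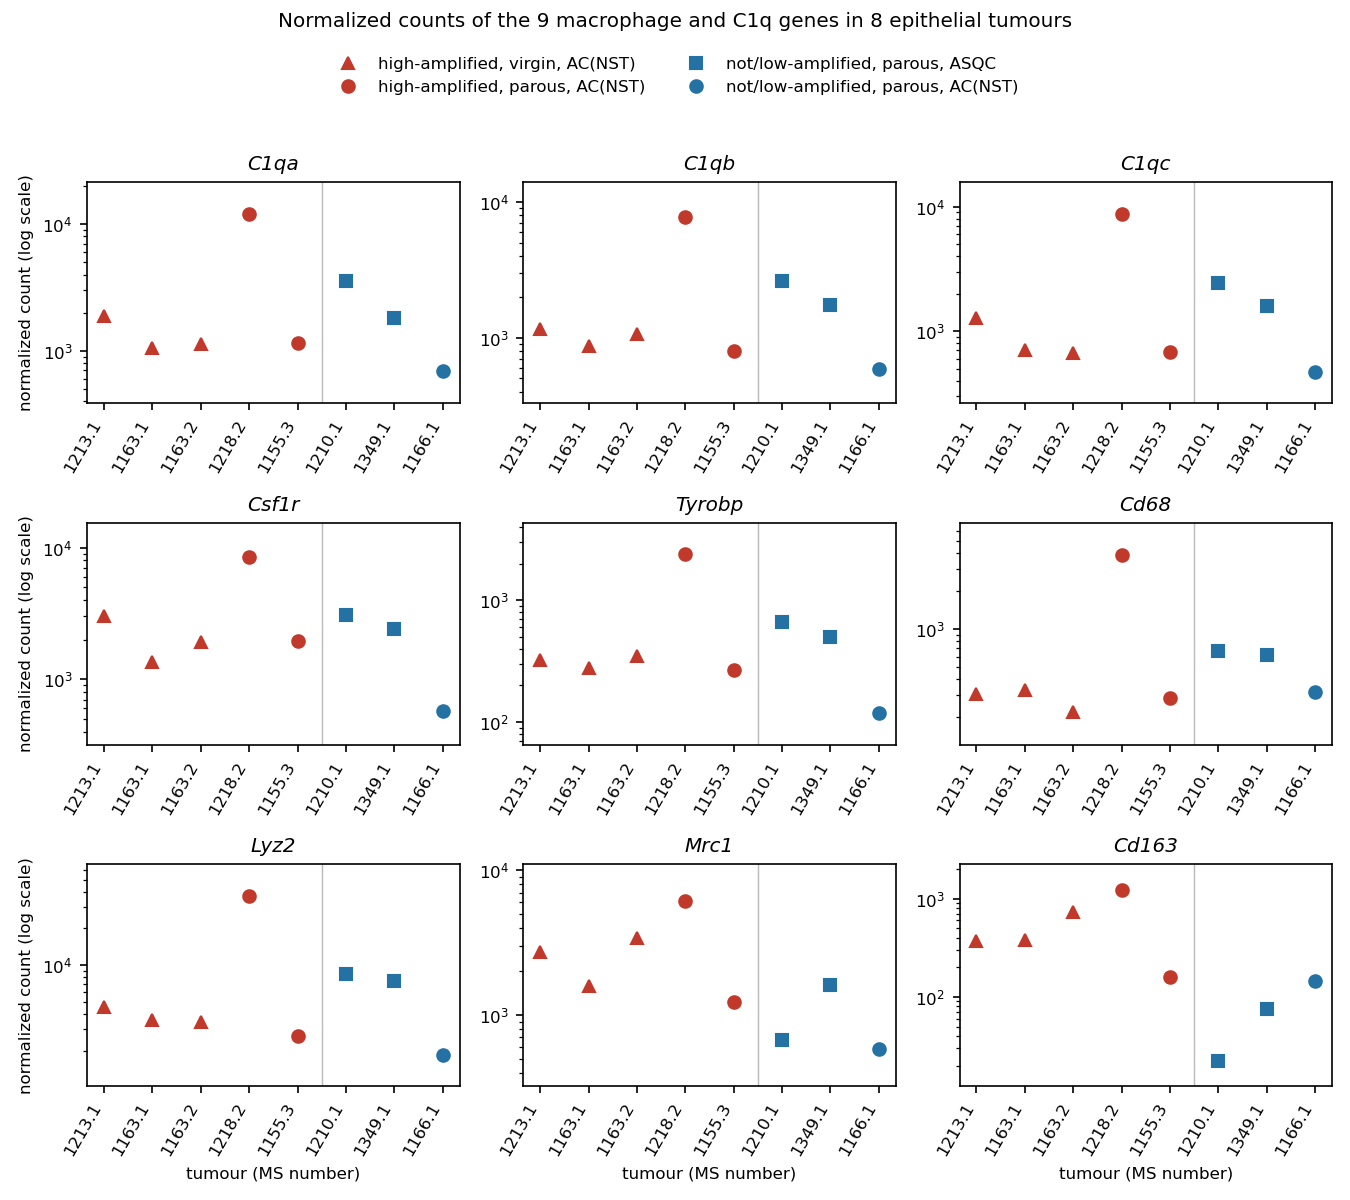
Normalized count (log axis) of each member in the 8 epithelial tumours, with 1 point per tumour and no error bars; colour gives amplification group and the marker gives parity and histotype. MS 1218.2 is highest for all 9 members, and MS 1210.1 is high for the C1q genes but lowest for Cd163 at 22.5.

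MS 1218.2 was highest for 9 of 9 members, between 3.86-fold (Mrc1) and 12.5-fold (C1qc) above the median of the other 7 tumours. Among the 14007 genes that passed the filter on low counts, 5.96% reached at least the fold of Mrc1 in this tumour. MS 1166.1 was lowest for 7 of 9, at a median of 0.38 times the other tumours, with Cd68 and Cd163 as the exceptions. The members took 0.517% of the reads on genes in MS 1218.2, against 0.0295% in MS 1166.1 and a median of 0.0925% over the 8 tumours. Markers of other stromal cells were also high in MS 1218.2. All 6 endothelial markers were highest there, and their summed level was 12209 against 1900 to 5119 in the other tumours. Of 7 fibroblast markers 6 were highest there, with a sum of 360978 against 28575 to 111963. The 8 epithelial markers summed to 1.03 times the median of the others, with none highest in MS 1218.2. Of 6 pan-leukocyte genes 5 were highest there, and the sum of the 6 was 17482 against 2383 to 11973. The exception was Ptprc, which encodes the leukocyte antigen CD45 and has 18313 exon bases, at 1614 normalized counts in MS 1218.2 and 208 to 2303 in the others. The part of these cell types in the members' levels was not tested.

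The levels of 7 members varied together over the tumours. Over the 8 epithelial tumours the 21 pairs among C1qa, C1qb, C1qc, Csf1r, Tyrobp, Cd68 and Lyz2 had Pearson r of log2(normalized count + 1) between 0.75 and 0.99 (median 0.94) and Spearman rho between 0.57 and 1. The median over all 36 pairs of members was 0.90, and over all pairs of the 14007 genes −0.01. C1qa and C1qb gave r = 0.99 and rho = 0.90 (two-sided exact permutation p = 0.000198 and 0.00456, Benjamini-Hochberg adjusted over 36 pairs 0.00116 and 0.0164). C1qa and Csf1r gave r = 0.92 and rho = 1, their tumours standing in the same order (exact permutation p = 0.000322 and 4.96e-05, adjusted 0.00116 and 0.00179). The weakest pair of the 7 was Csf1r and Cd68, with r = 0.75 and rho = 0.57 (exact permutation p = 0.0522 and 0.151, adjusted 0.0854 and 0.237). Of the 36 pairs 21 had an adjusted p under 0.05 for r and 16 for rho.

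Over the 8 epithelial tumours Mrc1 and Cd163 went with each other more than with the rest. Their r was 0.83 and rho 0.76 (exact permutation p = 0.011 and 0.0368, adjusted 0.0188 and 0.0735). The 14 pairs of Mrc1 or Cd163 with the other 7 members had r between 0.14 and 0.69 (median 0.35) and rho between −0.17 and 0.57, and none had an adjusted p under 0.05. The split into 7 and 2 was drawn from these values, so that the difference between the sets was not tested.

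The correlations lean on MS 1218.2. Without it the number of pairs with an adjusted p under 0.05 fell from 21 to 13, while the C1q chains stayed at r = 0.95 to 0.98 with each other. The median r was 0.88 among the 7 genes and −0.32 between them and Mrc1 or Cd163. Mrc1 and Cd163 kept r = 0.75 (adjusted exact permutation p = 0.0954). Cd163 then ran against Cd68 at r = −0.89 (adjusted exact permutation p = 0.0193), where the 8 tumours had given 0.19, and against C1qa at −0.61 in place of 0.18. Leaving out the 2 tumours farthest from the median of the first gene gave r between 0.43 and 0.98 for the 21 pairs and 0.89 for Mrc1 and Cd163. Centred on the mean of each amplification group, Mrc1 and Cd163 had r = 0.62 (adjusted exact permutation p = 0.129). Mrc1 then stood closer to the 7 genes, at 0.65 (C1qa) to 0.75 (Lyz2, adjusted exact permutation p = 0.0408). Cd163 had −0.0015 (Csf1r) to 0.37 (Cd68) with them. Without MS 1210.1 the r of Mrc1 was 0.90 with Csf1r, 0.85 with Tyrobp and 0.80 with Cd163. In each other fit that left out 1 tumour it was highest with Cd163.

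**Figure D2:**
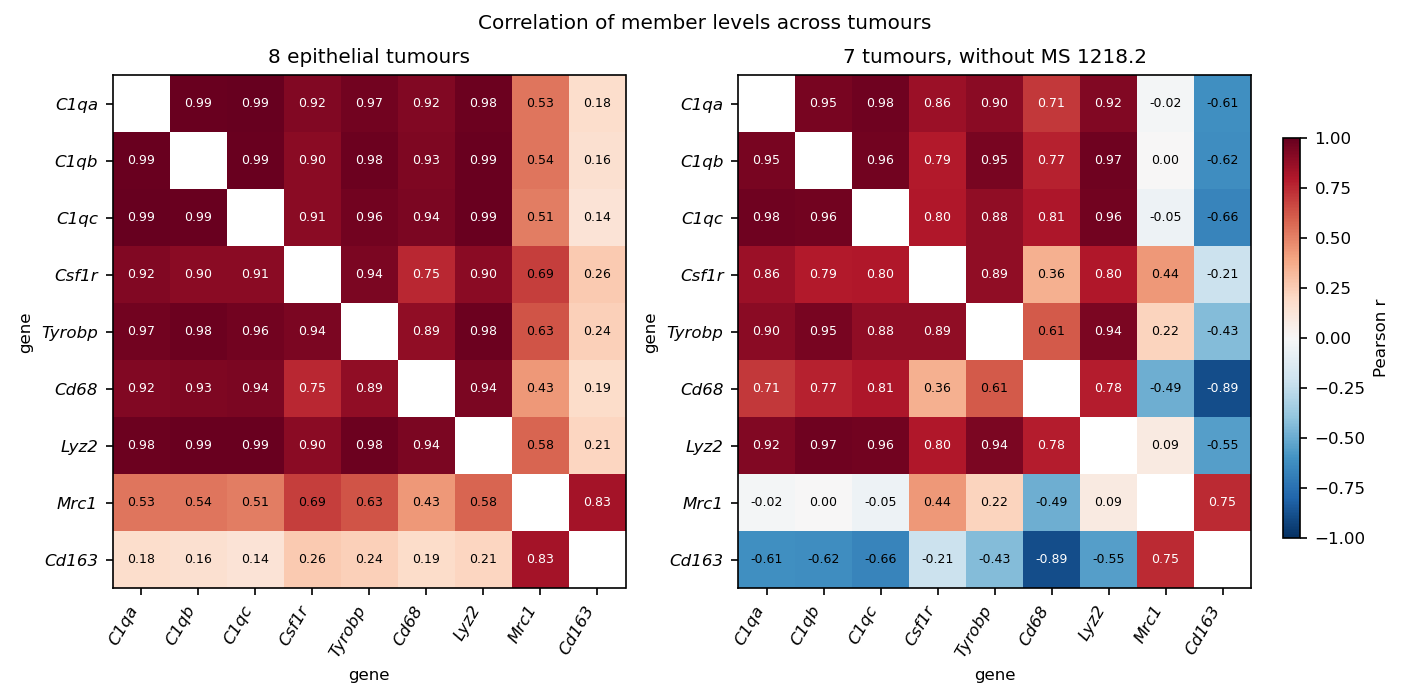
Pearson r of log2(normalized count + 1) for each pair of members, over the 8 epithelial tumours (left) and without MS 1218.2 (right). The 7 genes from C1qa to Lyz2 hold r of 0.75 or more on the left, and Cd163 runs from 0.14 to 0.26 with them on the left and from −0.89 to −0.21 on the right.

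The 3 C1q chains kept nearly fixed proportions over a 17.4-fold range of their summed share of reads. The ratio of C1qa to C1qb normalized counts lay between 1.05 (MS 1349.1) and 1.61 (MS 1213.1), that of C1qa to C1qc between 1.15 and 1.72, and that of C1qb to C1qc between 0.894 and 1.60. To separate make-up from amount, each member was also set against the mean log2 level of the other 8 in the same tumour, on a scale that includes the sarcoma. These values are not per length, so they compare a gene between tumours and not genes with each other. Cd163 was −6.34 in MS 1210.1 and −4.40 in MS 1349.1, the ASQC tumours, and −2.67 to −0.51 in the AC(NST) tumours. Mrc1 was highest beside the other members in MS 1163.2 (1.99) and the sarcoma (2.37), and lowest in MS 1210.1 (−0.90). Cd68 was −0.54 in MS 1166.1 and −2.48 in MS 1163.2. The mean of Mrc1 and Cd163 minus that of the other 7 averaged −0.40 with an SD of 0.90 over 5 high-amplified tumours and −2.37 with an SD of 1.69 over 3 not/low-amplified tumours. This difference of 1.97 on the log2 scale was not tested, the groups overlapped, and without MS 1210.1 it was 1.09.

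**Figure D3:**
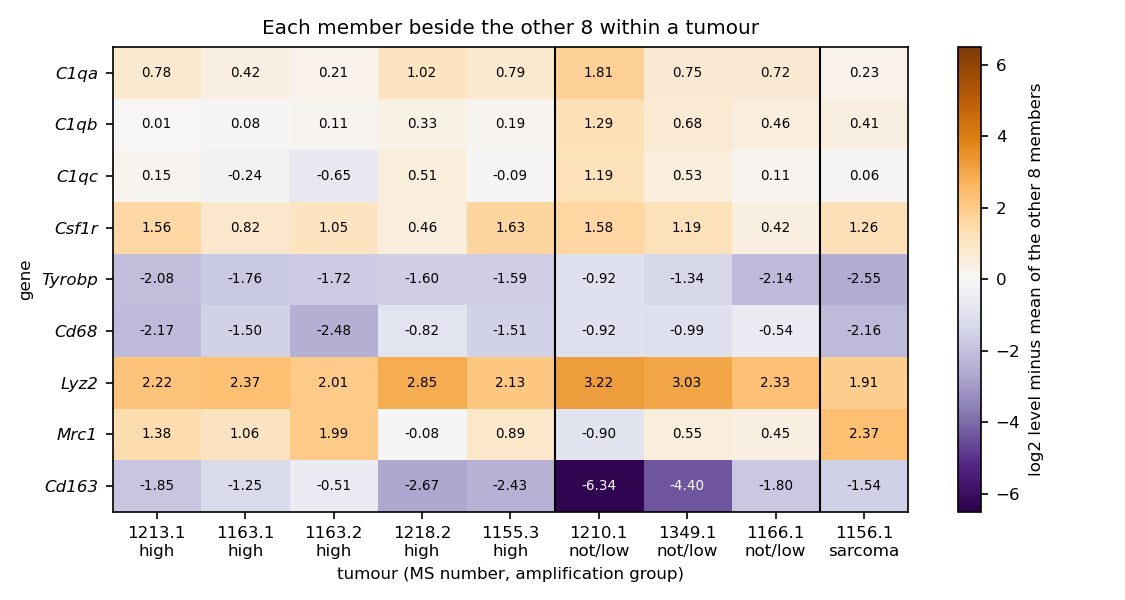
Log2 normalized count of each member minus the mean of the other 8 members in the same tumour, for 5 high-amplified, 3 not/low-amplified tumours and the sarcoma. Rows are to be read across tumours; Cd163 is lowest in the ASQC tumours MS 1210.1 (−6.34) and MS 1349.1 (−4.40).

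Amplification status was compared over 5 high-amplified and 3 not/low-amplified tumours. All 9 members had a positive fold change, high- over not/low-amplified, but none was called by edgeR's quasi-likelihood test, where a call needs an adjusted p under 0.05 and more than a 2-fold change. By that rule 0.921% of the 14007 genes tested were called. Cd163 was the furthest apart, at 574 ± 422 (SD, n = 5) against 81.0 ± 61.5 (SD, n = 3). Its log2 fold change was 2.86 (SE 0.79, edgeR adjusted p = 0.0908). Mrc1 was at 3008.5 ± 1931 (SD, n = 5) against 957 ± 571 (SD, n = 3). Its log2 fold change was 1.66 (SE 0.59, edgeR adjusted p = 0.144). They were the 2 of 9 members with an unadjusted p under 0.05, and 22.8% of all genes had one. The other 7 had log2 fold changes of 0.53 to 0.92 with edgeR adjusted p of 0.555 to 0.74, against a median of 0.02 over all genes.

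DESeq2 called Cd163 (adjusted p = 0.00194) and Mrc1 (adjusted p = 0.0402) with nearly the same fold changes, but it called 10.8% of the genes to which it gave an adjusted p, and it gave none to Cd68 and Lyz2. Limma on log2 values called none of the 9. Cd163 was thus the 1 member without overlap between the groups, and 7.55% of all genes were as cleanly higher in the high-amplified tumours. Over all alternatives the adjusted p of Cd163 lay between 0.00194 and 0.423, and its log2 fold change between 1.97 and 3.55. With MS 1163.1 and MS 1163.2, which share a mouse number, summed, edgeR called 31 genes in place of 129, and no member. The log2 fold change of Cd163 was then 2.86 (edgeR adjusted p = 0.135). Among parous tumours alone it was 3.18 (edgeR adjusted p = 0.423), and among AC(NST) tumours alone, where MS 1166.1 is the single not/low-amplified tumour, 1.97 (edgeR adjusted p = 0.346).

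The direction of 6 members hung on MS 1218.2. Without it C1qa went to −0.62, C1qb to −0.74, C1qc to −0.84, Tyrobp to −0.49, Cd68 to −0.91 and Lyz2 to −0.73 on the log2 scale, and Csf1r to 0.04. Cd68 had the smallest p of these (edgeR adjusted p = 0.0908), at 281 ± 46.9 (SD, n = 4) against 534 ± 190 (SD, n = 3). Cd163 (2.37, edgeR adjusted p = 0.0657) and Mrc1 (1.23, adjusted p = 0.13) stayed positive. Without MS 1218.2, edgeR called 1255 genes in place of 129, and without MS 1210.1 only 1, and in both cases no member.

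Gene length moved with the groups as well. Over all genes, the log2 ratio of a tumour to the median tumour rose with exon length in MS 1213.1, MS 1163.1, MS 1163.2 and MS 1155.3 (Spearman 0.127 to 0.326 across genes) and fell with it in MS 1218.2 and the 3 not/low-amplified tumours (−0.274 to −0.221). Cd163 (5461 exon bases) and Mrc1 (6371) are long, as is Csf1r (5774), whereas the other 6 members have 667 to 1931 exon bases. With a per-tumour offset for exon length, added after the data were seen, the log2 fold change was 2.76 for Cd163 (edgeR adjusted p = 0.115) and 1.57 for Mrc1 (adjusted p = 0.188). After adjustment of the log2 values for exon length Csf1r and Cd68 correlated at r = 0.91 in place of 0.75. Mrc1 also came closer to the members other than Cd163. Its r was 0.63 with Cd68, the lowest of these, in place of 0.43, and 0.72 with Lyz2, the highest, in place of 0.58. With Cd163 it was 0.82 in place of 0.83.

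**Figure D4:**
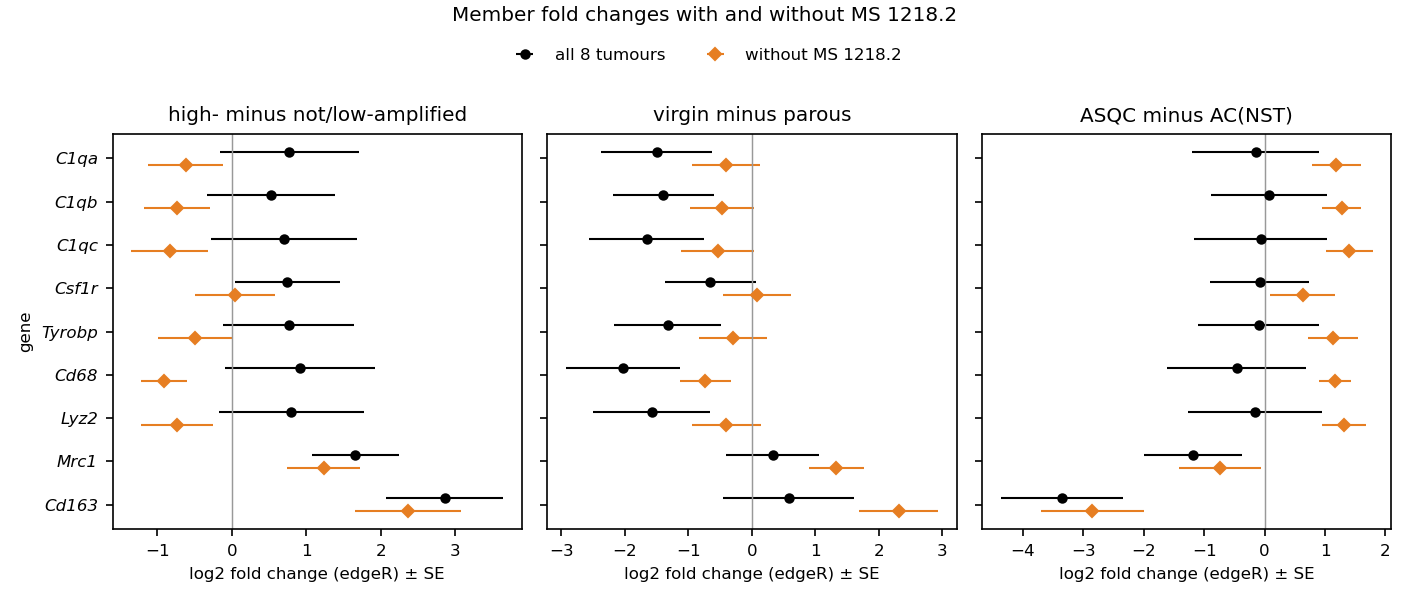
Log2 fold change (edgeR) with its standard error for each member in the comparisons of amplification, parity and histotype, over 8 tumours (black circles) and without MS 1218.2 (orange diamonds). In the first panel 6 members change sign without MS 1218.2, whereas Mrc1 and Cd163 stay above 0, at 1.23 and 2.37.

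Reproductive history was compared over 3 virgin tumours, 2 of them with the same mouse number, and 5 parous tumours. The C1q genes, Tyrobp, Cd68 and Lyz2 had lower means in the virgin tumours, with log2 fold changes, virgin over parous, of −2.03 for Cd68, −1.66 for C1qc, −1.58 for Lyz2, −1.50 for C1qa, −1.40 for C1qb and −1.33 for Tyrobp. Csf1r was at −0.65, while Mrc1 (0.33) and Cd163 (0.58) were above 0. EdgeR called no member and 0% of all genes, DESeq2 called no member and 3.57% of genes, and limma called no member. DESeq2 gave no p to Cd163 here. Cd68 alone of the members had an unadjusted edgeR p under 0.05 (adjusted p = 0.352), as had 14.2% of all genes. With the 2 virgin tumours that share a mouse number summed, Cd68 was at −1.99 (edgeR adjusted p = 0.638). In that fit 7.44% of all genes had an unadjusted p under 0.05, and Cd68 did not. Without MS 1155.3 edgeR called 147 genes by parity, and no member. Cd68 was at 282 ± 57.5 (SD, n = 3) in virgin and 1148 ± 1526 (SD, n = 5) in parous tumours. Without MS 1218.2 its log2 fold change shrank to −0.73 (edgeR adjusted p = 0.411), Csf1r turned to 0.08, and Cd163 was at 2.31 (edgeR adjusted p = 0.248). The 3 virgin tumours are among those whose ratios rose with exon length. With the length offset the 6 lower members, all short, moved closer to 0, to −1.46 for Cd68, −1.16 for C1qc, −0.89 for C1qa, −0.83 for C1qb, −0.78 for Tyrobp and a value between those of C1qc and C1qa for Lyz2 (edgeR adjusted p 0.49 to 0.735). Within the high-amplified tumours alone, where the 2 parous tumours are MS 1218.2 and MS 1155.3, Mrc1 and Cd163 turned negative at −0.56 and −0.55.

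Histotype was compared over 2 ASQC and 6 AC(NST) tumours. Cd163 was lower in ASQC, at 48.9 ± 37.3 (SD, n = 2) against 503 ± 416 (SD, n = 6). The log2 fold change was −3.35 (SE 1.02, edgeR adjusted p = 0.345). It did not overlap between the types, and 4.98% of all genes were as cleanly lower in ASQC. Mrc1 was at −1.18 (edgeR adjusted p = 0.711), and the other 7 members lay between −0.46 and 0.07 with edgeR adjusted p of 0.943 or more. EdgeR called no member and 0.236% of genes, and 1 of 9 members had an unadjusted p under 0.05, as had 8.72% of all genes. The 33 genes behind that share became 4 without MS 1349.1 and 84 without MS 1166.1. DESeq2 called Cd163 (adjusted p = 0.00341) and 3.44% of genes, and gave no p to C1qa, C1qb, C1qc, Tyrobp, Cd68 and Lyz2. Limma called none. Without MS 1218.2 the same 6 members were 1.13 to 1.40 higher in ASQC on the log2 scale, each with an unadjusted edgeR p under 0.05, as had 13.3% of all genes in that fit, and their adjusted p was 0.185 to 0.334.

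A list of 34 further macrophage genes was measured, of which 33 passed the filter. All 33 were above the median of the other tumours in MS 1218.2, at a median of 3.70-fold. The scavenger receptor Marco, left out by the filter, was at 603 normalized counts there and at 0 to 10.6 elsewhere, and was looked at after its values were seen. Of the 33, 27 had a higher r with the mean of the C1q genes than with the mean of Mrc1 and Cd163, as had 7 of 8 epithelial markers. Fcgr3 (r = 0.99), Laptm5 (0.98), Fcer1g (0.96) and Lgmn (0.95) stood closest to C1q, and Adgre1, which encodes F4/80, had 0.94. The 6 nearer to Mrc1 and Cd163 were Vsig4, Lyve1, Clec10a, Folr2, Timd4 and Spp1, with r to them of 0.94, 0.94, 0.87, 0.84, 0.73 and 0.40. Spp1 was level between the 2 sets, as its r to the C1q mean was 0.40 too, and Folr2 had 0.73 with that mean. Timd4 was scarce, at 0 to 54.6 normalized counts. Lyve1, Folr2, Timd4 and Vsig4 are expressed by resident tissue macrophages, but which cells gave these reads was not tested. In MS 1210.1, where Cd163 was lowest, Vsig4 (no reads) and Lyve1 (7.74 normalized counts) were lowest as well. Folr2, Timd4 and Clec10a were at 76.0, 2.81 and 30.9 there but lower still in MS 1166.1, at 32.1, 0 and 15.5.

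None of the 33 was called by edgeR or limma in any of the 3 comparisons. By amplification 2 had an unadjusted p under 0.05, Lyve1 (log2 fold change 2.33, edgeR adjusted p = 0.171) and Folr2 (2.11, adjusted p = 0.176), and DESeq2 called both. Over all genes 22.8% had such a p, and DESeq2 called 10.8%. The median of the 33 was 0.32, beside 0.02 over all genes. By parity Arg1 (−3.37, edgeR adjusted p = 0.278) and Gpnmb (−3.78, adjusted p = 0.279) had unadjusted p under 0.05, with lower values in virgin tumours, and DESeq2 called both. Over all genes the shares were 14.2% and 3.57%. Arg1, which encodes arginase, was at 483 to 696 normalized counts in the 3 virgin and 1420 to 13877 in the 5 parous tumours, without overlap. As cleanly lower in virgin tumours were 5.354% of all genes. By histotype 1 gene had an unadjusted p under 0.05, Nos2 (1.60, edgeR adjusted p = 0.472), and DESeq2 called none, beside 8.72% and 3.44% of all genes.

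**Figure D5:**
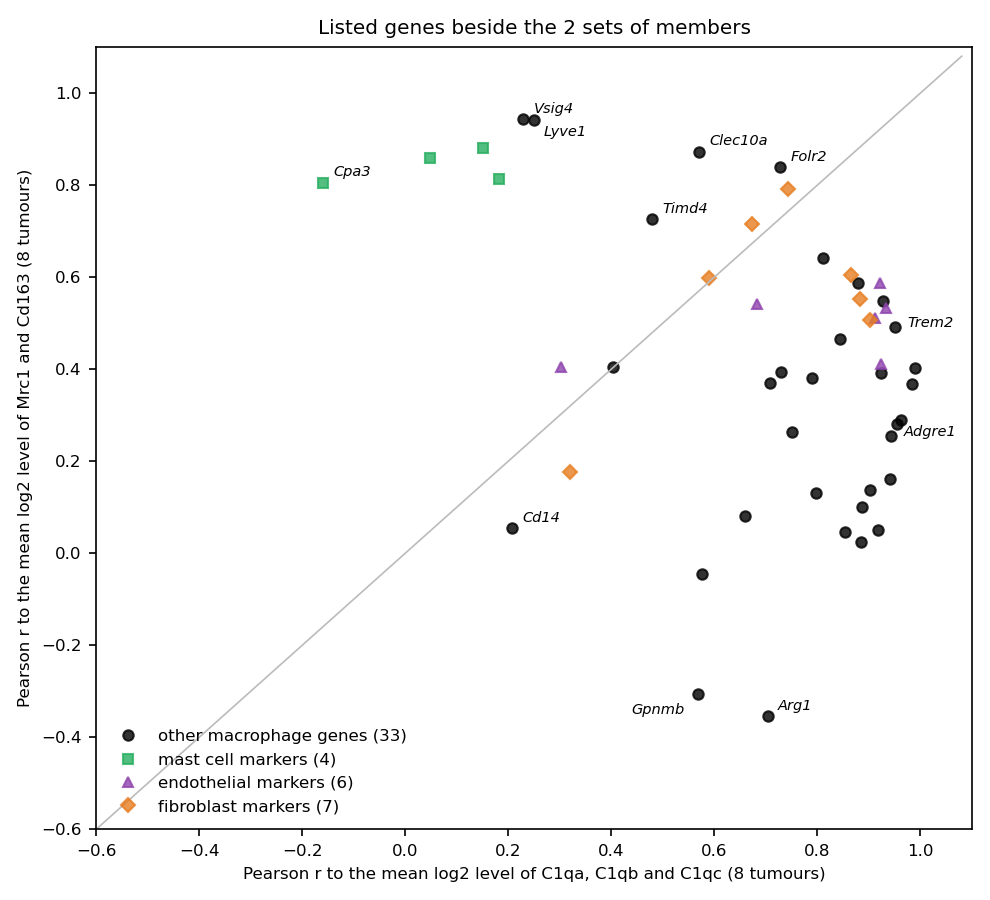
Pearson r over 8 tumours of each listed gene to the mean log2 level of the 3 C1q genes (horizontal) and of Mrc1 and Cd163 (vertical), with the line of equal r; each point is 1 gene. Vsig4, Lyve1 and the 4 mast cell markers lie at the upper left, and 27 of 33 other macrophage genes lie below the line.

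The ligands of the CSF1 receptor and the chemokines that draw monocytes were measured as 8 genes, 7 past the filter. EdgeR, DESeq2 and limma called none in any comparison and no unadjusted edgeR p was under 0.05. By amplification Ccl2 was at 1.05 (edgeR adjusted p = 0.392) and Ccl7 at 0.92 (adjusted p = 0.513). Csf1, the main ligand, was 1.03 higher in ASQC on the log2 scale (edgeR adjusted p = 0.616) and had r = 0.71 with the C1q mean. Cx3cl1, the ligand of the receptor CX3CR1, was at −1.18 in the same comparison (edgeR adjusted p = 0.595). By parity the leading genes of this list were Csf1 (−0.69, edgeR adjusted p = 0.569) and Cx3cl1 (−0.52, adjusted p = 0.659).

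Of 25 other complement genes 24 passed the filter and edgeR and limma called none. By amplification 6 of 24 had an unadjusted p under 0.05, beside 22.8% of all genes, led by Cd46 (2.25, edgeR adjusted p = 0.0901), which encodes a complement inhibitor, and the protease-like gene C1rl (3.18, adjusted p = 0.1). DESeq2 called 5 of the 24, beside 10.8% of all genes to which it gave an adjusted p. The proteases that C1q activates, C1ra, C1s1 and C1s2, had r of 0.70 to 0.87 with the C1q mean. The anaphylatoxin receptors C5ar1 and C3ar1 had r of 0.98 and 0.97 with it. C4b had 0.07 and C3 had 0.25. By parity the leading genes were Cfb (−1.47, edgeR adjusted p = 0.38) and C1rl (1.77, adjusted p = 0.431), with none under an unadjusted 0.05. By histotype Cfb (1.65, edgeR adjusted p = 0.505) and C7 (−3.35, adjusted p = 0.5678) were the 2 under it, beside 8.72% of all genes. DESeq2 called none in either.

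The 12 ITAM adaptors and TYROBP partners past the filter, of 13 measured, all stood nearer to C1q than to Mrc1 and Cd163, with a median r of 0.78. This was not particular to them. All 6 T cell, 4 neutrophil and 4 osteoclast markers past the filter and 7 of 8 epithelial markers did the same. All 4 mast cell and 5 adipocyte markers stood nearer to Mrc1 and Cd163. A share over all genes was not computed. Hcst, which encodes the sister adaptor DAP10, and Cd300lb had r of 0.96 and 0.97. EdgeR, DESeq2 and limma called none in any comparison. By parity Trem1 was at −1.80 (edgeR adjusted p = 0.337) and Hcst at −2.12 (adjusted p = 0.384). Trem1 was the 1 gene of this list with an unadjusted p under 0.05, beside 14.2% of all genes. By amplification Trem1 was at −1.44 (edgeR adjusted p = 0.251) and Siglech at 1.42 (adjusted p = 0.417). By histotype Trem1 was at 1.59 (edgeR adjusted p = 0.588) and Clec5a at 1.32 (adjusted p = 0.606).

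Markers of mast cells, which also reside in tissue, went with Mrc1 and Cd163. All 4 past the filter had r of 0.80 to 0.88 with their mean and −0.16 to 0.18 with the C1q mean. The summed level of 5 mast cell genes was 118 to 408 in the high-amplified and 0.674 to 72.3 in the not/low-amplified tumours, and Cpa3, Cma1 and Tpsb2 had no reads in MS 1210.1. By amplification Mcpt4 was at 3.55 (edgeR adjusted p = 0.0958) and Cpa3 at 3.10 (adjusted p = 0.141). EdgeR called none of the 4 genes, 3 had an unadjusted p under 0.05, and DESeq2 called 3. Over all genes 22.8% had such a p, and DESeq2 called 10.8%. The part of mast cells or of tissue around the tumour in the pattern of Cd163 was not tested. Adipocyte markers, 5 of 5 past the filter, had a median r of 0.53 with Mrc1 and Cd163 and −0.23 with C1q, and summed to 302 to 1998 in the high-amplified and 143 to 1447 in the not/low-amplified tumours.

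EdgeR called 1 of the listed genes, by histotype: S100a9, from the list of neutrophil markers. S100a9, a subunit of calprotectin, was at 601 and 961 normalized counts in the ASQC tumours and 4.20 to 65.4 in the AC(NST) tumours, a log2 fold change of 4.72 (SE 0.75, edgeR adjusted p = 0.0431). It stayed called in 1 of 8 fits that each left out 1 tumour (edgeR adjusted p 0.0246 to 0.281), DESeq2 called it, and limma did not (adjusted p = 0.126). S100a8, its partner, was at 2322 and 1975 in ASQC and 48.8 to 1264 elsewhere (edgeR adjusted p = 0.472), and Cxcr2 at 75.3 and 78.9 against 1.29 to 29.9 (adjusted p = 0.413). All 4 neutrophil genes past the filter, of 8 measured, were above 0 in this comparison, and their median was 2.59. Of these, 3 had an unadjusted p under 0.05, beside 8.72% of all genes. Ly6g, Mpo and Elane were under 10 normalized counts in all 8 tumours. Whether the S100a9 RNA came from neutrophils or from squamous tumour cells was not tested. T cell markers summed to 11.4 to 192 over 7 genes, with the highest sum in MS 1218.2. The B cell genes Cd22 and Cd79b were highest in MS 1218.2 too, at 192 and 26.8 normalized counts, and Cd79a and Ms4a1 were under 10 in all 8 tumours. Endothelial markers had a median r of 0.92 with C1q, and fibroblast markers 0.74. By amplification, edgeR called none of these or the remaining cell type markers, and the 2 with the smallest p of each list were as follows. Among endothelial markers they were Tie1 (0.78, edgeR adjusted p = 0.518) and Kdr (0.56, adjusted p = 0.541), and among fibroblast markers Col3a1 (1.67, adjusted p = 0.209) and Lum (0.73, adjusted p = 0.328). Pan-leukocyte genes were led by Lcp1 (0.68, edgeR adjusted p = 0.457) and Cd52 (−0.44, adjusted p = 0.733), T cell genes by Cd2 (1.05, adjusted p = 0.591) and Cd3d (−0.54, adjusted p = 0.751), and B cell genes by Cd79b (0.74, adjusted p = 0.583) and Cd22 (0.21, adjusted p = 0.918). Neutrophil genes were led by S100a9 (−4.57, edgeR adjusted p = 0.051) and Cxcr2 (−1.93, adjusted p = 0.286), dendritic cell genes by Zbtb46 (1.5, adjusted p = 0.0919) and Siglech (1.42, adjusted p = 0.417), and osteoclast genes by Mmp9 (−2.23, adjusted p = 0.198) and Dcstamp (−2.21, adjusted p = 0.296). Adipocyte genes were led by Lep (1.51, edgeR adjusted p = 0.507) and Cidec (1.02, adjusted p = 0.727), and epithelial genes by Cldn4 (−2.54, adjusted p = 0.0544) and Krt14 (−4.92, adjusted p = 0.109).

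The genes whose pattern was most like the members were found by correlation with the mean z-score of the 9 members over the 8 tumours. The 10 closest outside the members were Cd300lb (r = 0.99), C5ar1 (0.99), Parvb (0.98), Adcy4 (0.98), Fscn1 (0.98), Fcgr3 (0.98), Tie1 (0.98), Cd37 (0.98), Kcnab2 (0.98) and Mmrn2 (0.98). C5ar1 encodes the receptor of the complement fragment C5a and Fcgr3 an Fc receptor of macrophages, while Tie1 is 1 of the endothelial markers above. All 10 were highest in MS 1218.2, and without that tumour r lay between 0.88 and 0.98.

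The sarcoma lay below the epithelial median for 7 of the 9 members. On the scale over 9 tumours C1qa was at 789 normalized counts there against a median of 1435, Lyz2 at 2217 against 3900 and Tyrobp at 141 against 323. Cd68, at 180, was below all 8 epithelial tumours. The sarcoma lay above 4 of the 8 for C1qc, 3 for C1qb, 2 for Csf1r, and 1 each for C1qa, Tyrobp and Lyz2. Mrc1 was higher, at 2939, which is 1.92 times the epithelial median and above 6 of the 8, and Cd163 was at 263 against 255. Within the sarcoma C1qb exceeded C1qa, with a ratio of C1qa to C1qb of 0.896, below the range of the epithelial tumours. Of the list of other macrophage genes, Fcgr2b (3046), Mrc2 (3405), Mertk (1367) and Lyve1 (469) were higher in the sarcoma than in any epithelial tumour. Spp1 (188) was far under its epithelial range of 17544 upward. Whether the RNA of these genes came from macrophages or from other cells of the tumours was not tested. Mast cell markers summed to 1394 and fibroblast markers to 587625 there. With 1 sarcoma, none of these differences was tested.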

How the data were processed

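RNA from 9 tumours was analysed, grouped by the labels. The authors aligned paired reads with STAR (unique reads, at most 3 mismatches), counted reads per gene with HTSeq-count on GRCm38, and deposited these counts. For 8 tumours the authors also deposited a signal, which is the count over 1 size factor per tumour (0.776 to 1.42). The libraries were strand-specific, and the strand option of the counting is not given in the sources used here. The sarcoma was scaled with median-of-ratios factors over 9 tumours.

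Genes with at least 10 reads in at least 3 of 8 tumours were tested with edgeR 4.0.16 (TMM, quasi-likelihood, Benjamini-Hochberg over 14007 genes, R 4.3.3). SE is the log2 fold change divided by the square root of F. Alternatives used DESeq2 1.42.0, limma 3.58.1 with pseudocounts 1 and 10, other scaling, no filter, left-out tumours, summed same-mouse tumours, a parity term and subsets. Correlations used exact permutation over 40320 orders (numpy 2.4.6). The fits were tested on simulated data. Positions and exon lengths are from GENCODE M21.

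The rule for named genes takes all members, from each list the called genes or else the 2 with the smallest p (for markers of other cell types, by amplification), and the 10 genes most like the members. Genes named beyond it were chosen after their values were seen. The members and the lists were chosen with earlier results of these data known. Depths were 12501225 to 23912429 reads. The p-values rest on the spread between these tumours. They treat the tumours as independent, although MS 1163.1 and MS 1163.2 share a mouse number.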

Additional observations from a re-analysis of the deposited data

Results flagged for a closer look

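MS 1218.2 stood apart from the other tumours of its groups for 6 members. In the 5 high-amplified tumours the gap between MS 1218.2 and the next tumour, as a share of the whole range of log2 values, was 0.765 for C1qa, 0.836 for C1qb, 0.751 for C1qc, 0.88 for Tyrobp, 0.86 for Cd68 and 0.793 for Lyz2, above Dixon's critical value of 0.71. In the 6 AC(NST) tumours it was 0.65 for C1qa, 0.736 for C1qb, 0.661 for C1qc, 0.642 for Tyrobp, 0.86 for Cd68 and 0.7 for Lyz2, above the critical value for 6 values. Csf1r, Mrc1, Cd163 and the difference between Mrc1 and Cd163 and the other 7 members passed in no group. In all, 12 of 30 groups of values were marked, all by MS 1218.2. Chance marks about 1 in 20 groups, and the members move together, so the 12 are not independent.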

How the results depend on the processing

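EdgeR called 0 members in each comparison, and so did every setting but 3: DESeq2 called 2 by amplification and 1 by histotype, and DESeq2 without MS 1218.2, added after the data were seen, called 1 (Cd163, 2.33). With any 1 tumour left out, edgeR called 0 members in all 3 comparisons. Of 486 fold changes recomputed, 435 kept their sign and call, 47 changed sign, 19 of them in fits without MS 1218.2, and 4 became calls. The cause was not tested. DESeq2 without MS 1218.2 also turned the amplification values of C1qa (−0.65), C1qb (−0.76), C1qc (−0.86), Tyrobp (−0.51), Cd68 (−0.94) and Lyz2 (−0.75). Limma, with pseudocounts of 1 and 10, turned Cd68 by amplification (−0.11, −0.10) and, by histotype, C1qa (0.61, 0.61), C1qc (0.85, 0.84), Csf1r (0.40, 0.40), Tyrobp (0.66, 0.64), Cd68 (0.54, 0.53) and Lyz2 (0.77, 0.77). C1qb by histotype, at 0.07, turned with upper-quartile scaling (−0.0091) and same-mouse tumours summed (−0.070). Within the high-amplified tumours Mrc1 (−0.56) and Cd163 (−0.55) turned by parity.

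Over the fits that each left out 1 tumour, the amplification values ran from −0.62 to 1.49 for C1qa, −0.74 to 1.04 for C1qb, −0.84 to 1.27 for C1qc, −0.49 to 1.25 for Tyrobp, −0.91 to 1.18 for Cd68 and −0.73 to 1.18 for Lyz2. Csf1r by parity ran from −1.03 to 0.079. By histotype they ran from −0.76 to 1.19 for C1qa, −0.29 to 1.27 for C1qb, −0.45 to 1.40 for C1qc, −0.32 to 0.63 for Csf1r, −0.35 to 1.13 for Tyrobp, −0.67 to 1.16 for Cd68 and −0.37 to 1.31 for Lyz2. The number of correlated pairs, 21, was 13 to 25 over these fits and 21 to 22 over the other settings. The r of C1qa with Mrc1 ran from −0.018 to 0.80, of C1qa with Cd163 from −0.61 to 0.57 and of Cd68 with Cd163 from −0.89 to 0.40. The difference of 1.97 in make-up was 1.09 to 2.77 with 1 tumour left out, 1.87 with a pseudocount of 10 and 1.49 after adjustment for gene length. No paired analysis was possible because the labels give the groups no shared replicate numbers. With 3 not/low-amplified tumours, 2 of ASQC type and 1 library each, 1 tumour can set the sign of a fold change, and amplification, parity and histotype cannot be told apart.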
